A study of Mus musculus with 8 samples.

Results

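Chemokine receptors are the surface proteins by which a helper T cell reads where to go, and 7 of their genes, Ccr7, Ccr4, Ccr6, Ccr8, Cxcr3, Cxcr4 and Ccr10, were followed in sorted mouse CD4 T cells. They were picked by name as homing and effector receptors encoded away from the Ccr2 locus. Each is represented by 1 transcript cluster with a single gene symbol, and they are 7 of the 22180 genes so named. The low-level filter kept 6 of the 7, and Ccr10 did not pass it. The cells were splenic CD4+CD25- T cells sorted by flow cytometry from C57BL/6 mice 6 to 8 weeks old and then stimulated with plate-bound antibodies to CD3 and CD28. There were 4 groups of 2 arrays: CCR2-/- CD45RBlow, CCR2-/- CD45RBhigh, wild-type CD45RBlow and wild-type CD45RBhigh. All 4 groups share the CD25- gate and the stimulation, and no unstimulated cells were measured. The sample protocols state 48 h of stimulation and the series design 2 h, and the labels do not settle which is right. The labels name no cell type to which the CCR2 deletion is limited.

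These receptors are G protein-coupled proteins that span the membrane, and each binds a small set of chemokines laid down by a tissue. A naive T cell carries Ccr7 and Cxcr4, which bring it into lymph nodes and hold it there or in bone marrow. After antigen a helper T cell takes on receptors of inflamed tissue: Cxcr3 in Th1 cells, Ccr4 and Ccr8 in Th2 and regulatory T cells, Ccr6 in Th17 and regulatory T cells, and Ccr10 in cells bound for the skin. CD45RB is carried at a high level by naive CD4 T cells and at a low level by cells that have met antigen, and the CD45RBlow fraction can include regulatory T cells that escape a CD25- gate.

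Values are the deposited log2 expression levels, on which a difference of 1 is a 2-fold change, and levels are compared within a gene only. Array medians lay between 4.92 and 5.05, and the arrays of a group correlated at 0.984 to 0.994 across clusters. The replicate numbers differed in sex-linked genes. X-linked Xist stood at 4.45 to 5.02 on replicate 1 arrays and 11.7 to 12.1 on replicate 2 arrays, and Y-linked Kdm5d at 8.83 to 9.13 on replicate 1 arrays and 7.58 to 7.78 on replicate 2 arrays. The 2 arrays of a group were therefore not repeats of 1 RNA sample. The labels do not say how many mice stand behind an array, so the p-values speak only to the spread among these arrays. Summed over 6 CD4 T cell markers, the linear level was 19219 to 21283 on CD45RBlow arrays and 18127 to 20093 on CD45RBhigh arrays, and 0 of the 6 passed limma's test (0 also at an unadjusted p under 0.05). Ccr2, the targeted gene, was dim, at 5.15, 4.70, 4.62 and 4.75 on the CCR2-/- arrays and 4.61, 4.52, 4.45 and 4.26 on the wild-type arrays. It was thus higher on every array labelled CCR2-/- than on any wild-type array, as were 1.17% of all genes tested. The difference was 0.34 (limma adjusted p = 0.94, unadjusted p under 0.05). The exons its cluster covers and those deleted are not given in the sources used here, so these levels do not check the labels, and CCR2-/- stands below for the labelled genotype.

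In CD45RBlow cells, compared with CD45RBhigh cells over both genotypes, 2 receptors rose and 1 fell. Transcript of Cxcr3 and Ccr4 rose, by 2.26-fold and 2.01-fold, while that of the lymph node receptor Ccr7 fell 1.92-fold. Ccr6 and Ccr8 had higher values on every CD45RBlow array than on any CD45RBhigh array without passing the test, and Cxcr4 overlapped between the subsets. Limma thus called 3 of the 6 tested receptors at an adjusted p under 0.05, against 3.03% of the 13508 genes tested, with 2 higher (1.10% of all genes) and 1 lower (1.93%). With the replicate number as a block in the fit, Ccr6 passed too and the count was 4, against 5.61% of all genes. At an unadjusted p under 0.05 the count was 5 receptors, against 18.1% of all genes. All CD45RBlow arrays lay above all CD45RBhigh arrays for 4 receptors (6.13% of all genes) and below them for 1 (8.13%). The median log2 difference of the 6 tested receptors was 0.76, beside -0.0078 over all tested genes, and the receptors were chosen with results of these data known. These are bulk samples, so fewer cells carrying a receptor and less of its RNA per cell cannot be told apart.

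**Figure D1:**
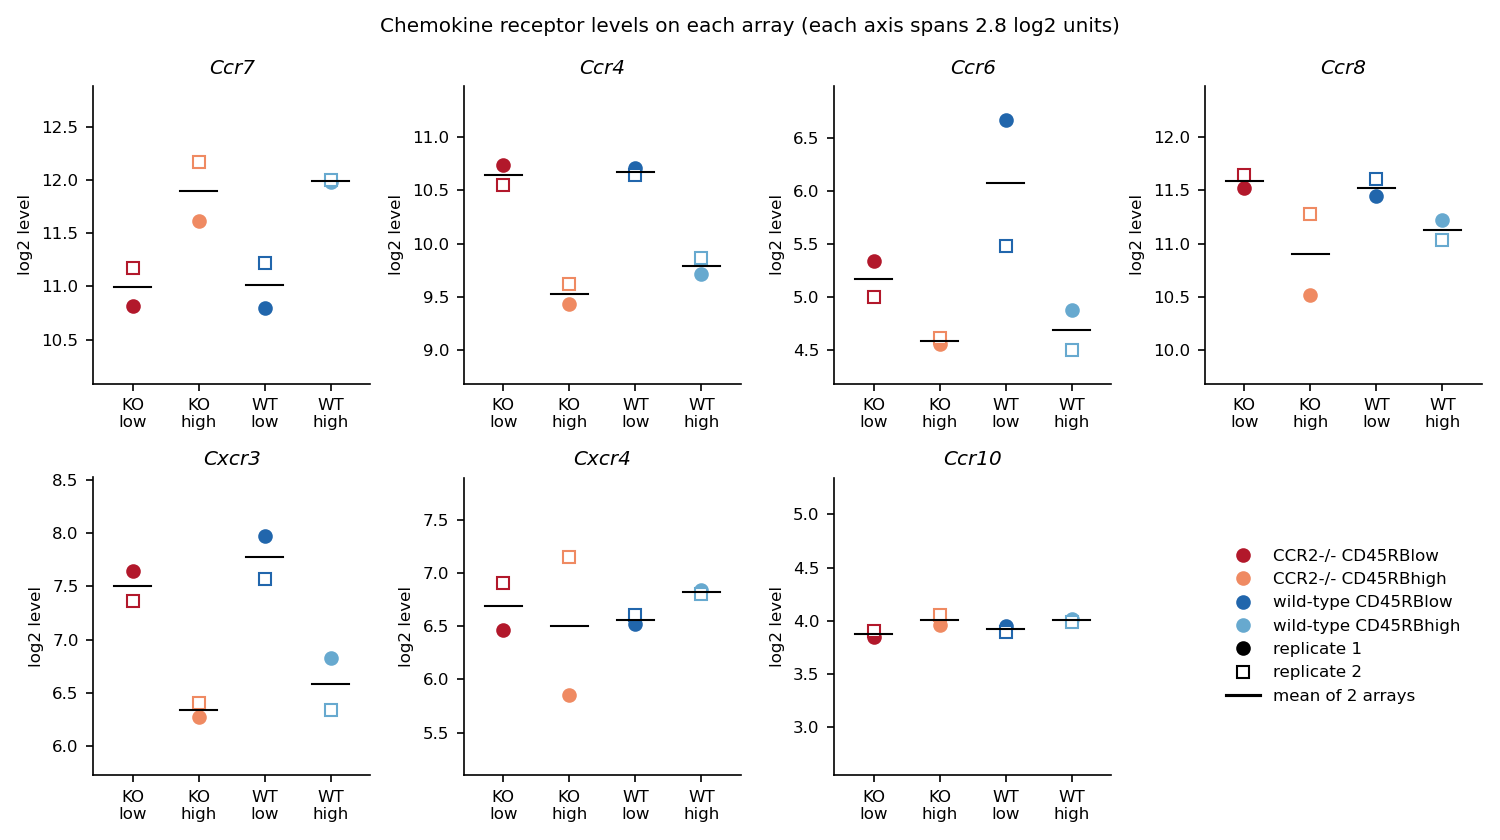
Log2 level of each of the 7 receptors (vertical axes, each spanning the same number of log2 units) on every array, by group from left to right CCR2-/- (KO) CD45RBlow, CCR2-/- CD45RBhigh, wild-type (WT) CD45RBlow and wild-type CD45RBhigh, with points for arrays and lines for group means. Ccr4 and Cxcr3 lie higher and Ccr7 lower on the CD45RBlow arrays in both genotypes, Ccr6 is highest at 6.67 on a wild-type CD45RBlow array, and Ccr10 stays between 3.84 and 4.05.

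Ccr7, at chr11:99144199-99155077 of GRCm38.p6, binds CCL19 and CCL21 and guides naive T cells and dendritic cells into lymph nodes. Its log2 level was 10.81 and 11.17 in CCR2-/- CD45RBlow cells, 11.62 and 12.17 in CCR2-/- CD45RBhigh cells, 10.80 and 11.22 in wild-type CD45RBlow cells, and 11.98 and 12.00 in wild-type CD45RBhigh cells. Every CD45RBlow array lay below every CD45RBhigh array, and within a subset the genotypes overlapped. Averaged over genotypes, Ccr7 fell by 0.94 (SE 0.16, 95% confidence interval -1.32 to -0.57, limma adjusted p = 0.0303). Taken 1 genotype at a time, the difference was -0.90 in CCR2-/- cells (adjusted p = 0.165) and -0.98 in wild-type cells (adjusted p = 0.225). With the replicate number as a block in limma both passed, at an adjusted p of 0.0402 in CCR2-/- cells and 0.042 in wild-type cells. In 4 of 4 groups the replicate 2 array was the higher, by 0.024 to 0.56. The averaged call rested on nearly all arrays: it held without CCR2-/- CD45RBhigh replicate 1 or 2, and limma's adjusted p was 0.114 and 0.0513 without CCR2-/- CD45RBlow replicate 1 and 2, 0.148 and 0.0588 without wild-type CD45RBlow replicate 1 and 2, and 0.0934 and 0.0992 without wild-type CD45RBhigh replicate 1 and 2.

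Ccr7 is also carried by B cells and mature dendritic cells, so their markers are given beside it. Of 9 named B cell markers 6 were tested, and limma called Ighm, the mu heavy chain, which fell by 1.03 (adjusted p = 0.0128). Over all genes tested 1.93% were called lower. Cd79a, Ms4a1 and Cd22 reached the filter's percentile on CD45RBhigh arrays only, so the filter bears on the sign of their differences. Fcer2a, the low-affinity IgE receptor, measured 5.02 and 4.81 in CCR2-/- CD45RBlow cells, 7.91 and 5.88 in CCR2-/- CD45RBhigh cells, 4.94 and 4.90 in wild-type CD45RBlow cells, and 6.996 and 5.34 in wild-type CD45RBhigh cells. It was highest on the replicate 1 arrays of CD45RBhigh cells. Its averaged difference of -1.61 did not pass (limma adjusted p = 0.137) and passed with the replicate block (adjusted p = 0.0446). With the mean of all clusters of a gene the call of Ighm was lost (limma adjusted p = 0.307). The summed linear level of the 9 was 962 to 1142 on CD45RBlow arrays and 1755 to 2405 on CD45RBhigh arrays, with Pax5, Blk and Cr2 below the 40th percentile of all clusters on every array. Among dendritic cell markers, Naaa fell (-0.73, adjusted p = 0.0286) of 4 tested and 8 named, with sums of 423 to 514 on CD45RBlow arrays and 635 to 853 on CD45RBhigh arrays and with Itgax, Flt3, Xcr1 and Siglech below that percentile throughout. Ctss fell (-1.23, adjusted p = 0.00963) among 4 tested of 9 macrophage markers, which summed to 855 to 921 on CD45RBlow arrays and 1311 to 2115 on CD45RBhigh arrays, and Csf1r, Adgre1, Lyz2, Cd14 and Fcgr1 were below the percentile. Cd68 differed by -0.53 without passing (limma adjusted p = 0.292). It passed with the replicate block (adjusted p = 0.0244), a setting that called 5.61% of all genes. Markers of CD8 T cells (2 tested of 2) and NK cells (2 tested of 4 named) held 0 calls in limma. At an unadjusted p under 0.05 each held 1, against 18.1% of all genes, and the block added Cd8b1 (-0.92, adjusted p = 0.0467). The NK cell marker was Eomes, which reached the filter's percentile on CD45RBhigh arrays only, so the filter bears on the sign of its difference. The CD8 T cell sums were 150 to 189 on CD45RBlow arrays and 240 to 468 on CD45RBhigh arrays, and those of NK cells were 82.7 to 88.1 on CD45RBlow arrays and 89.0 to 118 on CD45RBhigh arrays, with Ncr1 and Klrb1c below the percentile. Without 1 array, the calls of Ighm, Naaa and Ctss held in 6, 3 and 7 of 8 fits. The part of these cells in the Ccr7 difference was not tested.

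Cxcr4, at chr1:128588199-128592299, is the receptor for CXCL12 and keeps lymphocytes in bone marrow and lymphoid tissue. On the log2 scale it measured 6.47 and 6.91 in CCR2-/- CD45RBlow cells, 5.85 and 7.15 in CCR2-/- CD45RBhigh cells, 6.52 and 6.60 in wild-type CD45RBlow cells, and 6.84 and 6.81 in wild-type CD45RBhigh cells. The lowest and the highest value of all 8 arrays were the CCR2-/- CD45RBhigh pair, so that group held the widest spread. The difference averaged over genotypes was -0.04 on the log2 scale (95% confidence interval -0.65 to 0.58, limma adjusted p = 0.969), an interval that does not show the subsets to be alike. It was 0.19 in CCR2-/- cells (adjusted p = 0.904) and -0.26 in wild-type cells (adjusted p = 0.923). The averaged difference was -0.36 without CCR2-/- CD45RBhigh replicate 1 and 0.29 without replicate 2 of that group.

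Ccr4 and Cxcr3, the receptors that rose, are shown with the sequence upstream of their RefSeq transcription starts. Both were higher in the CD45RBlow samples, and a shared regulation was not tested. The RefSeq promoter table of GRCm38.p6 matched 5 of the 7 receptors, with Ccr7 and Ccr10 named only. The 250 bases before the start are printed from 5′ to 3′ on the gene's strand. Capitals mark the matches found to an AP-1 motif (TGANTCA, with N for any base) in Ccr4 and to a T-box motif (TCACACNT) in Cxcr3. The Ccr4 window, chr9:114496545-114496794 on the minus strand, lies inside the gene's annotated span, which extends to an upstream start. The Cxcr3 window is chrX:101734148-101734397, also on the minus strand.
Ccr4: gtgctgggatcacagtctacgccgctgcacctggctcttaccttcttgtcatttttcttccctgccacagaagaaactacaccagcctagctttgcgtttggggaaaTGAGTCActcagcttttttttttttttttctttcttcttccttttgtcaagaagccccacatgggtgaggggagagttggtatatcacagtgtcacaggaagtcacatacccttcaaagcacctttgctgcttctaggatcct
Cxcr3: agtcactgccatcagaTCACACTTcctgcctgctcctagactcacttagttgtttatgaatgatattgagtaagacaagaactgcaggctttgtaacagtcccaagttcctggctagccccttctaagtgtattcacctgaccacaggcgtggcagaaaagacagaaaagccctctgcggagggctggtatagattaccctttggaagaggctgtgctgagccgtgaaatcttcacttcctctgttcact

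The AP-1 match in Ccr4 lies 143 to 137 bases before the start, and 6.75% of 32851 mouse windows of the same length hold such a match on either strand. The T-box match in Cxcr3, the kind of site bound by factors such as T-bet, lies 234 to 227 bases before the start, and 2.95% of windows hold it. Forkhead (TGTTTNC, 17.8% of windows), GATA (GATAA, 22.6%) and STAT (TTCNNNGAA, 7.02%) motifs were searched on both strands too. Neither window holds these letters. In the windows of the other receptors, Ccr6 held 2 STAT matches before 1 of its starts and 1 GATA match before another, Ccr8 held 1 GATA match, and Cxcr4 held 1 forkhead and 1 GATA match, with no overlap between matches. A match is a run of letters and was not tested as a binding site. The motifs were chosen with the promoter sequences in view, so the shares do not measure how unusual a match is.

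Ccr4, at chr9:114490316-114505476, binds CCL17 and CCL22 and is carried by Th2, skin-homing and regulatory T cells. The arrays gave log2 levels of 10.74 and 10.55 in CCR2-/- CD45RBlow cells, 9.43 and 9.62 in CCR2-/- CD45RBhigh cells, 10.71 and 10.65 in wild-type CD45RBlow cells, and 9.71 and 9.86 in wild-type CD45RBhigh cells. The arrays of each group lay within 0.19 of each other, and the lowest CD45RBlow value stood well clear of the highest CD45RBhigh value. The genotypes overlapped in CD45RBlow cells but not in CD45RBhigh cells, though ranges of 2 arrays a group can part without a difference. Averaged over genotypes, Ccr4 rose by 1.004 (SE 0.089, 95% confidence interval 0.80 to 1.21, limma adjusted p = 0.00441). This call held without any 1 of the 8 arrays (adjusted p = 0.00602 to 0.0361). In CCR2-/- cells alone Ccr4 rose by 1.12 (adjusted p = 0.0252). In wild-type cells the difference was 0.89 (adjusted p = 0.0718, and 0.0388 with the replicate block). Within CCR2-/- cells the call was lost with array weights (adjusted p = 0.0713), on the 4 arrays of that genotype alone (0.147), without CCR2-/- CD45RBlow replicate 1 or 2 (0.197 and 0.0692), without CCR2-/- CD45RBhigh replicate 1 (0.063) and without wild-type CD45RBlow replicate 1 or 2 (0.0757 each). Within wild-type cells limma passed Ccr4 without CCR2-/- CD45RBhigh replicate 1 or 2 (adjusted p = 0.0453 each).

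Cxcr3, at chrX:101731535-101734147, binds CXCL9, CXCL10 and CXCL11 and brings Th1 and memory T cells into inflamed tissue. Its transcript stood at log2 levels of 7.64 and 7.36 in CCR2-/- CD45RBlow cells, 6.27 and 6.40 in CCR2-/- CD45RBhigh cells, 7.98 and 7.57 in wild-type CD45RBlow cells, and 6.83 and 6.33 in wild-type CD45RBhigh cells. The subsets did not overlap in either genotype, and the genotypes overlapped in both subsets. Averaged over genotypes, Cxcr3 rose by 1.18 (SE 0.15, 95% confidence interval 0.83 to 1.52, limma adjusted p = 0.0126). The difference was 1.16 in CCR2-/- cells (adjusted p = 0.082) and 1.20 in wild-type cells (adjusted p = 0.121), and with the block it passed in both, at an adjusted p of 0.0268 in CCR2-/- cells and 0.0346 in wild-type cells. The averaged call was lost without CCR2-/- CD45RBlow replicate 1 (limma adjusted p = 0.0628) or wild-type CD45RBlow replicate 1 (0.0761), the higher array of each group. The gene lies on the X chromosome, and its replicate 2 arrays differed from the replicate 1 arrays of the same group by -0.49 to 0.13.

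**Figure D2:**
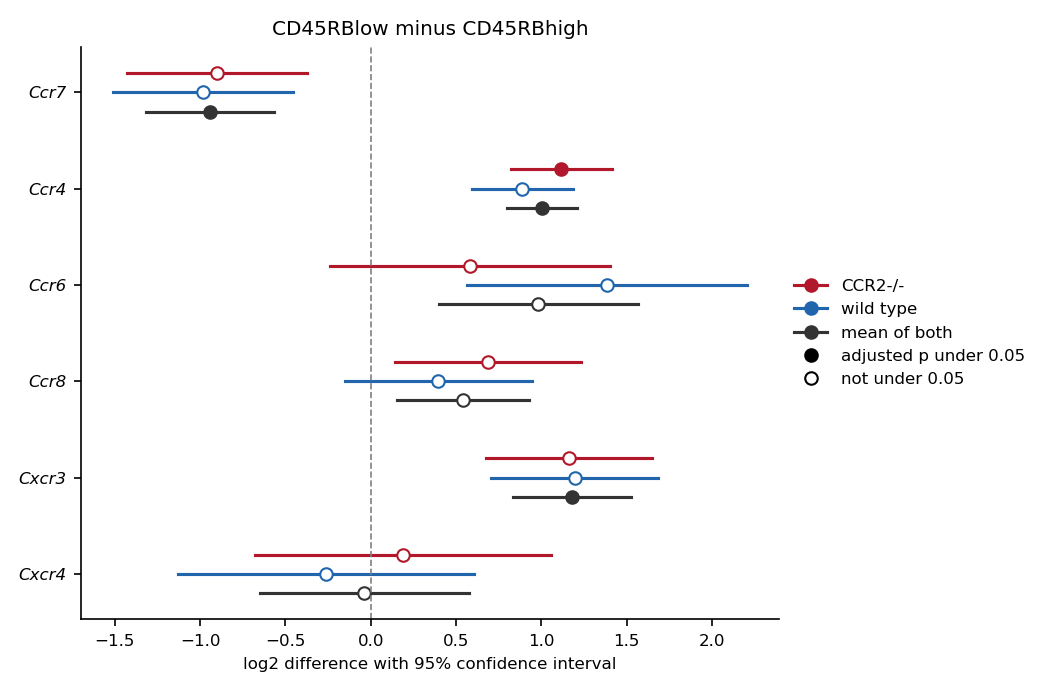
Log2 difference of CD45RBlow minus CD45RBhigh cells (horizontal axis) for the 6 tested receptors, in CCR2-/- cells, in wild-type cells and averaged over both, with 95% confidence intervals from limma and filled points for an adjusted p under 0.05. The averaged differences run from -0.94 for Ccr7 to 1.18 for Cxcr3, and the estimates of both genotypes have the same sign for each receptor except Cxcr4.

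Ccr8, at chr9:120092133-120094906, is the receptor for CCL1 and in mice also for CCL8, and it marks Th2 and tissue regulatory T cells. Log2 levels were 11.52 and 11.65 in CCR2-/- CD45RBlow cells, 10.52 and 11.28 in CCR2-/- CD45RBhigh cells, 11.44 and 11.61 in wild-type CD45RBlow cells, and 11.22 and 11.04 in wild-type CD45RBhigh cells. All CD45RBlow values lay above all CD45RBhigh values, and CCR2-/- CD45RBhigh replicate 1 stood lowest. The difference averaged over genotypes was 0.54 (SE 0.16, 95% confidence interval 0.16 to 0.93, limma adjusted p = 0.137), or 0.69 in CCR2-/- cells (0.282) and 0.40 in wild-type cells (0.724). With each array left out in turn, the averaged difference ran from 0.35 to 0.73 and that within CCR2-/- cells from 0.30 to 1.07. Both were highest without CCR2-/- CD45RBhigh replicate 2.

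Ccr6, at chr17:8236041-8258519, binds CCL20 and marks Th17 cells, some regulatory T cells and also B cells. Its log2 level was 5.34 and 5.00 in CCR2-/- CD45RBlow cells, 4.56 and 4.61 in CCR2-/- CD45RBhigh cells, 6.67 and 5.48 in wild-type CD45RBlow cells, and 4.88 and 4.50 in wild-type CD45RBhigh cells. The CD45RBlow arrays lay above the CD45RBhigh arrays, and the level reached the 40th percentile of all clusters on 6 of the 8 arrays. The spread was widest in wild-type CD45RBlow cells, whose arrays differed by more than those of any other group. Averaged over genotypes the difference was 0.98 (SE 0.25, 95% confidence interval 0.40 to 1.56), which did not pass (limma adjusted p = 0.088) and passed with the replicate block (adjusted p = 0.0319). It was 0.58 in CCR2-/- cells (adjusted p = 0.567) and 1.39 in wild-type cells (adjusted p = 0.26). With each array left out in turn, the averaged difference ran from 0.69 to 1.28, the latter without wild-type CD45RBlow replicate 2. The summed B cell markers given above were lower in CD45RBlow cells, and the part of B cells in the Ccr6 values was not tested.

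Ccr10, at chr11:101172998-101175443, is a receptor for CCL27 and CCL28 of skin and mucosal T cells and of plasma cells. The log2 level was 3.84 and 3.91 in CCR2-/- CD45RBlow cells, 3.96 and 4.05 in CCR2-/- CD45RBhigh cells, 3.95 and 3.90 in wild-type CD45RBlow cells, and 4.02 and 3.99 in wild-type CD45RBhigh cells. All values were below the 40th percentile of their array, so the receptor did not pass the filter and was not among the genes tested. In a fit with no filter the averaged difference was -0.10 (95% confidence interval -0.25 to 0.04, limma adjusted p = 0.568).

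The 4 group means were also put in order for each gene. For Ccr7 the order was wild-type CD45RBhigh, CCR2-/- CD45RBhigh, wild-type CD45RBlow and CCR2-/- CD45RBlow from the highest down, and only the step of 0.89 between the subsets separated ranges that did not overlap. For Ccr4 and Cxcr3 the order ran wild-type CD45RBlow, CCR2-/- CD45RBlow, wild-type CD45RBhigh, CCR2-/- CD45RBhigh. Their steps between the subsets, 0.85 for Ccr4 and 0.92 for Cxcr3, again parted the ranges, and so did a step of 0.26 between CCR2-/- and wild-type CD45RBhigh cells for Ccr4. Ccr6 had the same order, with non-overlapping steps of 0.91 between CCR2-/- and wild-type CD45RBlow cells and 0.48 between CCR2-/- CD45RBlow and wild-type CD45RBhigh cells. The order of Ccr8 was CCR2-/- CD45RBlow, wild-type CD45RBlow, wild-type CD45RBhigh and CCR2-/- CD45RBhigh, and the step of 0.40 between wild-type CD45RBlow and wild-type CD45RBhigh cells alone parted the ranges. For Cxcr4 it was wild-type CD45RBhigh, CCR2-/- CD45RBlow, wild-type CD45RBlow and CCR2-/- CD45RBhigh, and all neighbours overlapped. Ranges of so few arrays a group can part without a difference, and the share of all genes parted so was not counted. Limma did not call the genotype difference of Ccr4 in CD45RBhigh cells or that of Ccr6 in CD45RBlow cells.

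Within CCR2-/- cells limma called 1 of the 6 receptors, Ccr4, against 0.333% of all genes in either direction, 0.141% higher and 0.192% lower. Within wild-type cells it called 0, against 0.0888% of all genes, 0.0444% in each direction. At an unadjusted p under 0.05 the count was 4 receptors in CCR2-/- cells (12.3% of all genes) and 4 in wild-type cells (9.22%). Fitted with the replicate block, the count was 3 in each genotype, Ccr4, Ccr7 and Cxcr3, against 1.45% of all genes in CCR2-/- cells and 0.770% in wild-type cells. The test of the difference between the genotypes' subset effects passed for 0 of 6 receptors in limma, against 0% of all genes, and for 0 at an unadjusted p under 0.05, against 1.18%. Its estimates ran from -0.80 for Ccr6 (95% confidence interval -1.97 to 0.36) to 0.45 for Cxcr4 (-0.77 to 1.68), with an adjusted p of 1 for all 6. The subset effects in CCR2-/- and in wild-type cells were therefore not shown to differ.

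The cells labelled CCR2-/- were then compared with wild-type cells for the levels of the other receptors. Averaged over subsets, limma called 0 of 6 receptors and 0% of all genes. At an unadjusted p under 0.05 the count was 0 receptors, against 3.86% of all genes. All 6 differences were negative. The arrays of the genotypes overlapped for all 6 receptors, while all CCR2-/- arrays lay above all wild-type arrays for 1.17% of all genes and below them for 0.503%. The estimates were -0.06 for Ccr7 (95% confidence interval -0.43 to 0.32), -0.10 for Cxcr4 (-0.71 to 0.52), -0.15 for Ccr4 (-0.36 to 0.057), -0.08 for Ccr8 (-0.47 to 0.30), -0.26 for Cxcr3 (-0.60 to 0.086) and -0.51 for Ccr6 (-1.09 to 0.076). Limma's adjusted p was 0.94 to 0.984. The median of the 6 was -0.12, beside 0.02 over all genes. Ccr4 and Ccr8 share chromosome 9 with Ccr2, at distances of 9.6 and 4.01 Mb.

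Within CD45RBlow cells limma also called 0 receptors (0% of all genes), and 1, Ccr6, stood at an unadjusted p under 0.05 (2.21% of all genes). The Ccr6 difference between CCR2-/- and wild-type CD45RBlow cells was -0.91 (95% confidence interval -1.73 to -0.085, limma adjusted p = 1). The arrays of the genotypes did not overlap, with differences of -1.33 between the replicate 1 arrays and -0.48 between the replicate 2 arrays. With 2 arrays a group, ranges can part without a difference, and the share of all genes parted so was not counted. Without wild-type CD45RBlow replicate 1 the estimate was -0.31, and without wild-type CD45RBlow replicate 2 it was -1.50. The other receptors lay between -0.27 for Cxcr3 and 0.13 for Cxcr4. Within CD45RBhigh cells 0 receptors were called or reached an unadjusted p under 0.05 (0% and 2.62% of all genes). The estimates ran from -0.32 for Cxcr4 to -0.097 for Ccr7, with Ccr4 at -0.26 (95% confidence interval -0.56 to 0.029, limma adjusted p = 1).

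**Figure D3:**
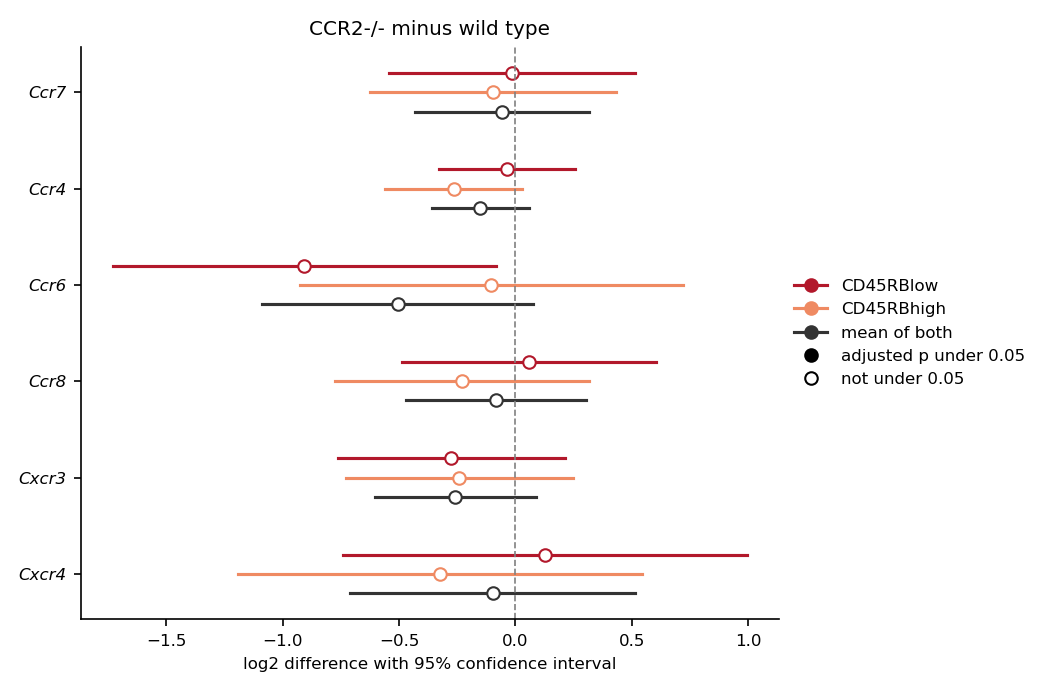
Log2 difference of CCR2-/- minus wild-type cells (horizontal axis) for the 6 tested receptors, in CD45RBlow cells, in CD45RBhigh cells and averaged over both, with 95% confidence intervals from limma. No point is filled, since no adjusted p was under 0.05, and the interval of Ccr6 in CD45RBlow cells, -1.73 to -0.085, is the only one that does not include 0.

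Of 18 other chemokine receptors listed, 17 were named and 7 passed the filter. Between the subsets limma called 0 of them (3.03% of all genes), and 2 stood at an unadjusted p under 0.05 (18.1% of all genes). Cxcr6, a receptor for CXCL16 of effector and tissue-resident T cells, had the smallest p. Its log2 level was 7.38 and 5.85 in CCR2-/- CD45RBlow cells, 5.62 and 4.98 in CCR2-/- CD45RBhigh cells, 7.29 and 6.05 in wild-type CD45RBlow cells, and 4.66 and 5.04 in wild-type CD45RBhigh cells. The subsets did not overlap, and the averaged difference of 1.57 did not pass (limma adjusted p = 0.0874) and passed with the replicate block (0.0296). Ccrl2, an atypical receptor that binds chemerin without signalling, stood at 4.47 and 5.03 in CCR2-/- CD45RBlow cells, 4.91 and 8.27 in CCR2-/- CD45RBhigh cells, 4.80 and 4.83 in wild-type CD45RBlow cells, and 5.89 and 8.17 in wild-type CD45RBhigh cells. The replicate 2 arrays of CD45RBhigh cells stood far above all others in both genotypes, and the averaged difference was -2.03 (limma adjusted p = 0.213). The median difference of the 7 was 0.04.

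Of 13 chemokines that bind the receptors, 11 were named and 6 passed the filter. Between the subsets limma called 0 of them (3.03% of all genes), and 4 stood at an unadjusted p under 0.05 (18.1% of all genes). Ccl20, the ligand of Ccr6, had log2 levels of 7.95 and 5.90 in CCR2-/- CD45RBlow cells, 5.45 and 5.35 in CCR2-/- CD45RBhigh cells, 8.30 and 7.34 in wild-type CD45RBlow cells, and 5.57 and 5.67 in wild-type CD45RBhigh cells. Like Ccr6, it was higher on every CD45RBlow array and highest on wild-type CD45RBlow replicate 1. The averaged difference was 1.86 (limma adjusted p = 0.0656, and 0.0266 with the replicate block). Ccl27a, a ligand of Ccr10, differed by -0.44 (adjusted p = 0.0524, and 0.0437 with the block). Cxcl10 reached the filter's percentile on CD45RBhigh arrays only, and no median is given for this list.

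**Figure D4:**
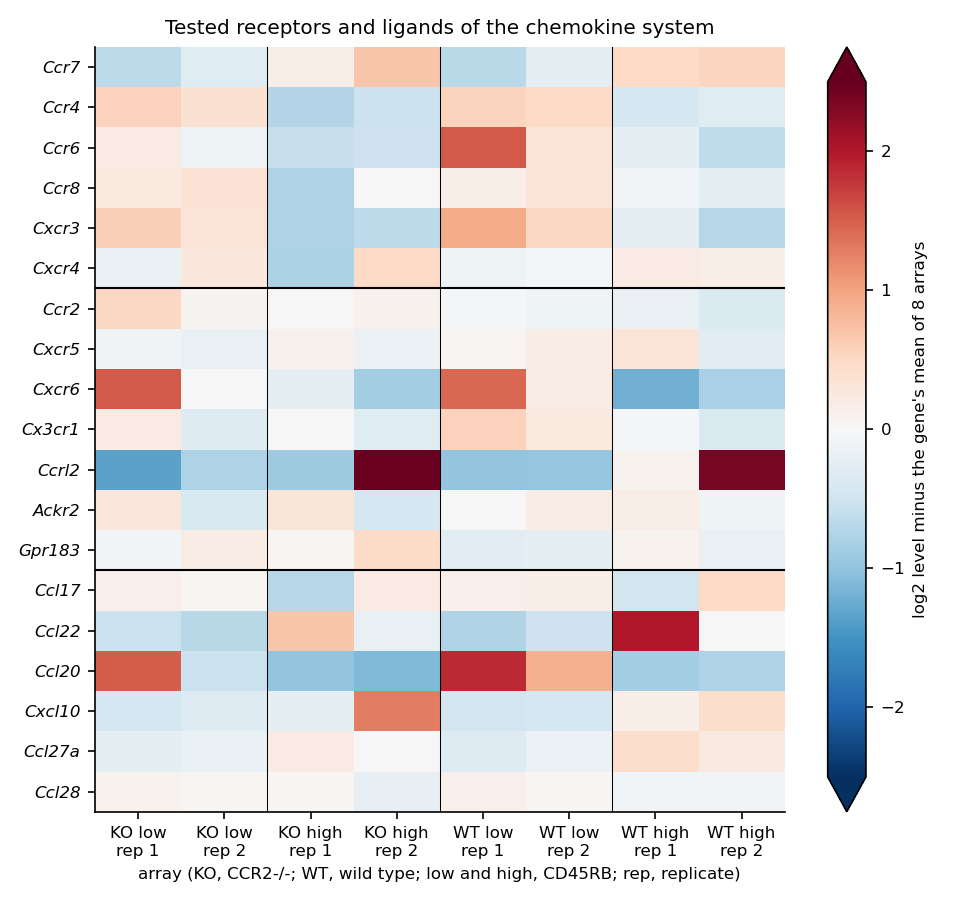
Log2 level minus the gene's mean over 8 arrays (colour scale, log2 units) for the tested chemokine receptors described here (top block), other chemokine receptors (middle block) and ligands (bottom block), in rows, on the arrays in columns, CCR2-/- (KO) to the left of wild type (WT) and CD45RBlow to the left of CD45RBhigh. Ccr4 and Cxcr3 are above their means on all CD45RBlow arrays, Cxcr6 and Ccl20 are highest on the replicate 1 arrays of CD45RBlow cells, and Ccrl2 is far above its mean on the replicate 2 arrays of CD45RBhigh cells (8.27 and 8.17).

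Downstream of the receptors, 20 of 24 listed genes of signalling and desensitisation were named and tested. In CD45RBlow cells limma called 1 higher (1.10% of all genes) and 1 lower (1.93%). Rgs16, which shortens G protein signals, rose by 0.91 (adjusted p = 0.0469), with a call that held in 1 of 8 fits without an array and was lost with no filter on low values (0.0631). Grk5, a kinase that desensitises G protein-coupled receptors, differed by 0.72 without passing (adjusted p = 0.0602), and passed with the replicate block (0.0499), with the 60th percentile filter (0.0496) and with arrays centred on their medians (0.0432). Pik3r5, a regulatory subunit of PI3K-gamma, fell by 0.55 (adjusted p = 0.027), with a call that held in 3 of 8. The median of this list was -0.075. Among 15 tested of 19 named other homing molecules, Selplg, the selectin ligand PSGL-1, fell by 0.41 (adjusted p = 0.0406), a call held in 0 of 8 fits without an array and lost when arrays were centred on their medians (adjusted p = 0.0693). Itga4, the integrin alpha 4 chain, differed by -0.71 without passing (limma adjusted p = 0.295). It passed with the replicate block (adjusted p = 0.00573), a setting that called 5.61% of all genes.

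Among transcription factors known to act on these receptors, 19 of 21 were named and tested. In CD45RBlow cells 5 rose (1.10% of all genes) and 1 fell (1.93%). Maf, a factor of interleukin 4 and interleukin 10 expression, rose by 2.54 on the log2 scale (limma adjusted p = 0.00183). Ahr, the aryl hydrocarbon receptor, rose by 2.72 (adjusted p = 0.00443), and Prdm1, the gene of Blimp-1, by 1.67 (adjusted p = 0.00586). Foxp3, the defining factor of regulatory T cells, rose by 3.05 (adjusted p = 0.00627), and these 4 calls held in 8 of 8 fits without an array. Gata3, the Th2 factor, rose by 0.73 (adjusted p = 0.0244), and Stat4, which signals for interleukin 12, fell by 0.66 (adjusted p = 0.0286). These 2 were named after their values were seen and held in 2 and 3 of the 8 fits, and Gata3 was lost with the mean of all clusters of a gene (adjusted p = 0.0542). Tbx21, the gene of T-bet, which acts on Cxcr3, was looked up for that reason and differed by 0.19 (adjusted p = 0.685).

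Regulatory T cells can carry Ccr4, Ccr8 and Cxcr3, and 5 of 10 tested regulatory T cell markers rose in the CD45RBlow samples, against 1.10% of all genes. The 5 markers were Foxp3, Il10 (3.58, limma adjusted p = 0.00749), Ikzf2 (2.49), Gpr83 (1.23) and Ctla4 (1.13). Those not called were Nrp1 (0.42), Itgae (0.28), Tigit (0.16), Il2ra (0.10) and Tnfrsf18 (-0.16). Itgae reached the filter's percentile on CD45RBlow arrays only, so the filter bears on the sign of its difference. The calls of Foxp3, Il10 and Ikzf2 held in 8 of 8 fits without an array, that of Gpr83 in 2 and that of Ctla4 in 1. With no filter on low values Gpr83 and Ctla4 were lost (adjusted p = 0.0679 each), as was Ctla4 with array weights (0.0667). Ctla4 was named after its values were seen. Summed linear levels of the 10 markers, which the brightest of them weigh on most, were 10128 to 12054 on CD45RBlow arrays and 9064 to 10172 on CD45RBhigh arrays. These ranges overlap slightly. The mean log2 level of the 10 was 8.32 to 9.08 on CD45RBlow arrays and 7.43 to 7.58 on CD45RBhigh arrays, without overlap. The part of regulatory T cells in the receptor differences was not tested. Between genotypes, averaged over subsets, limma called 0 members of these lists and 0% of all genes. At an unadjusted p under 0.05 the counts were 2 other chemokine receptors (Ccr2 and Gpr183), 1 homing molecule and 1 transcription factor. The ligand, signalling and marker lists held 0, and the share over all genes was 3.86%.

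**Figure D5:**
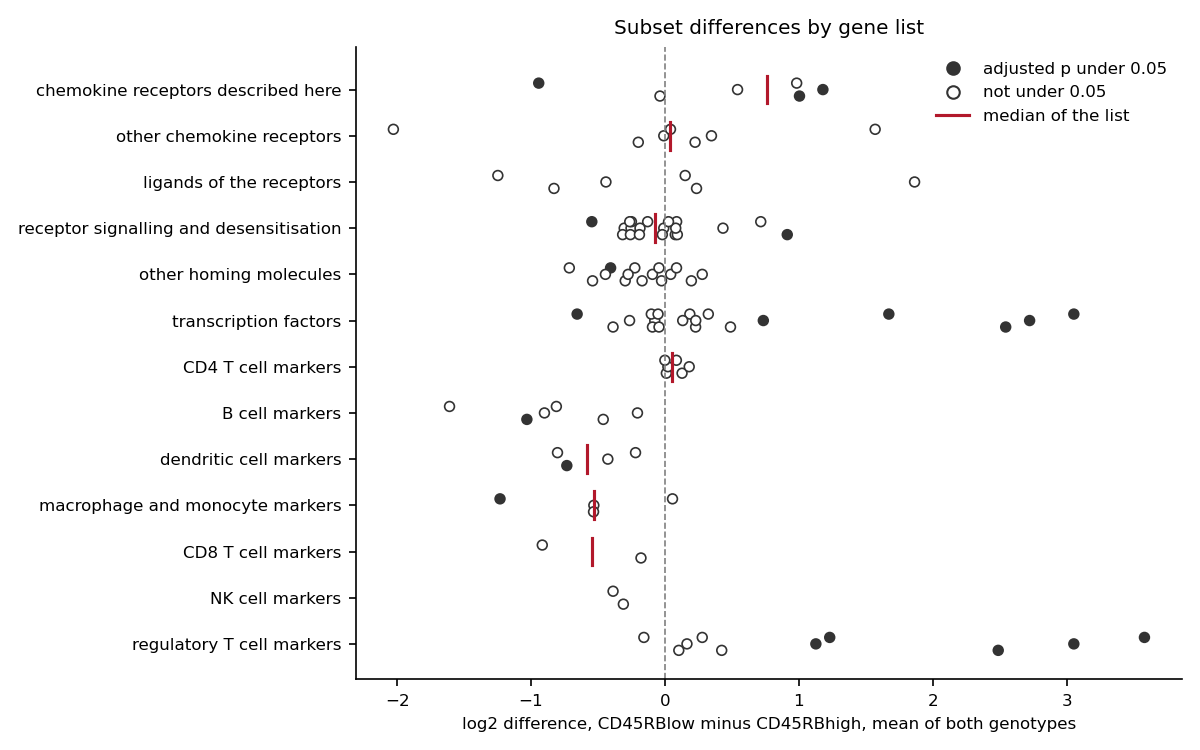
Log2 difference of CD45RBlow minus CD45RBhigh cells, averaged over genotypes (horizontal axis), for each tested gene of the gene lists (rows), with filled points for a limma adjusted p under 0.05 and red bars for the medians of lists whose tested genes all reached the filter's percentile in both subsets. The receptors described here have a median of 0.76 and the other chemokine receptors of 0.04. The lists were chosen with earlier results of these data known, so the medians describe them only and do not test a difference between lists.

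For each tested receptor, the 3 genes with the most similar profile over the 8 arrays were found by the root mean square difference, in log2 units, between profiles centred on their own means. Nearest to Ccr7 were Milr1 (0.09), Ebi3 (0.12) and Herpud1 (0.13), and nearest to Ccr4 were Neto2 (0.12), Cpd (0.13) and Xylb (0.15). Ccr8 lay nearest to Farp1 (0.11), Tent5c (0.12) and Tpp1 (0.12). Cxcr3 lay nearest to Ctla4 (0.16), Malt1 (0.19) and Phactr2 (0.20). Ccr6 had no equally close match, with Adam19 (0.23), Il17a (0.23) and Car5b (0.24) nearest, and Cxcr4 lay nearest to Klf6 (0.09), Clcn5 (0.13) and Tmem67 (0.13). The arrays and the search over all tested genes are shared by these values, which are a description only.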

How the data were processed

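Gene expression was measured on 8 single-colour arrays with 200 ng of total RNA each, labelled, per the labels' protocols, with Affymetrix whole-transcript chemistry. The deposited values are log2 expression levels of 41034 transcript clusters, which the authors made, per the submitters' processing notes, with Partek and RMA. Versions are not given in the sources used here. RMA gives all arrays a common distribution, so a shift of most genes would not show. Groups came from the sample titles, and a title without a number was taken as replicate 1.

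Gene names came from the platform annotation, which gives 1 symbol for 23521 clusters, several for 1814 and none for 15699. The brightest cluster stood for a gene. Genes at or above their array's 40th percentile on at least 2 arrays were tested, 13508 of 22180. Limma 3.58.1 in R 4.3.3 fitted 4 group means over 8 arrays (4 residual degrees of freedom), two-sided, with Benjamini-Hochberg adjustment over all genes tested and a threshold of 0.05, in 7 comparisons: subset effects (CD45RBlow minus CD45RBhigh) and genotype effects (CCR2-/- minus wild type), each averaged and within a stratum, and their interaction. The median standard error was 0.103 for averaged and 0.145 for other effects, and the number of arrays limits the precision. The fit was tested on simulated data.

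The main fit did not pair arrays. The differences of replicate 2 from replicate 1 correlated across genes between all groups (6 correlations, 0.109 to 0.531). In the replicate block equal numbers were therefore treated as pairs, although no label says what they mark. The block value is given where it changes a call or moves a count of calls by over 1.5 times. The receptors, lists and tests were chosen with earlier results of these data known, and the motifs with the promoter sequences in view. From each list up to 4 passing genes, or 2 of smallest p, were named; others, such as those whose call a setting changed, were named after their values were seen. Alternatives were the replicate block, other filters, eBayes settings, array weights, all clusters of a gene, median centring, the arrays of a comparison alone, and leaving out each array.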

Additional observations from a re-analysis of the deposited data

How the results depend on the processing

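With 1 array left out, 288 values of single receptors kept direction and side of the threshold, 13 lost a call, 5 gained one and 30 reversed. Under the other settings 300 kept both, 9 gained and 2 lost a call. With the replicate block the receptors called between subsets numbered 4 averaged, 3 in CCR2-/- and 3 in wild-type cells, against 3, 1 and 0 without it, and the genes called were 758, 196 and 104, against 409, 45 and 12. In CCR2-/- cells 0 receptors were called with array weights and 0 on that genotype's own arrays. In wild-type cells 1 was called with trend and robust eBayes and 2 with array weights. Genes called in CCR2-/- cells were 69 with trend and robust eBayes, 7 with array weights, 83 with centred arrays and 9 on their own arrays; in wild-type cells they were 31, 116, 24 and 36. Leaving out 1 array gave 1 to 4 receptors and 39 to 524 genes averaged over genotypes, 0 to 2 receptors and 1 to 84 genes in CCR2-/- cells, and 0 to 1 receptors and 1 to 54 genes in wild-type cells. Genotype and interaction counts stayed at 0.

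The 30 reversals all came from leaving out 1 array and touched results that were not called. Subset differences of Cxcr4 ran from -0.36 to 0.29 averaged and from -0.46 to 0.84 in CCR2-/- cells. Averaged genotype differences ran from -0.20 to 0.083 for Ccr7, -0.28 to 0.11 for Ccr8 and -0.42 to 0.23 for Cxcr4. In CD45RBlow cells they ran from -0.23 to 0.19 for Ccr7, -0.13 to 0.057 for Ccr4, -0.021 to 0.14 for Ccr8 and -0.091 to 0.35 for Cxcr4. In CD45RBhigh cells they ran from -0.38 to 0.18 for Ccr7, -0.29 to 0.083 for Ccr6, -0.61 to 0.15 for Ccr8, -0.49 to 0.0054 for Cxcr3 and -0.97 to 0.32 for Cxcr4. The interaction ran from -0.20 to 0.36 for Ccr7, -0.095 to 0.67 for Ccr8, -0.28 to 0.21 for Cxcr3 and -0.20 to 1.10 for Cxcr4. A fit without 1 array leaves its group with a lone array, assumed to vary like the others; the cause of each change beyond that was not tested.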
